A study of Homo sapiens with 12 samples.

Results

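CDR1 and LINC00632 are a pair of genes that share a stretch of the X chromosome on opposite strands. They were found by gene name in both deposited tables, and these 2 genes are 2 of 59490 features with a name that occurs once. They were selected on their measured TPM in the 12 libraries (CDR1 high in one line and low in the other, LINC00632 above 0 in 1 library), so their levels are given as a description, with no test. Polyadenylated RNA was measured in the human lymphoma line OCI-LY1 (diffuse large B-cell type) and in OCI-LY1R, a derivative made resistant by growth in venetoclax, a BCL2 inhibitor, at doses raised to 1 µM. Each line received DMSO as vehicle or the DNA methyltransferase inhibitor decitabine at 1 µM over 3 days, and each of the 4 groups has 3 libraries. Whether OCI-LY1R is 1 clone, and whether replicates were separate cultures, is not stated in the labels, so p-values below measure only the spread between these libraries. Values are TPM, a length-normalised abundance that sums to 1000000 in each library.

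CDR1 encodes the cerebellar degeneration-related protein, an autoantigen known from paraneoplastic cerebellar degeneration. It is a single-exon gene. LINC00632 is a long noncoding RNA gene that runs across it on the other strand. One of its exons is the source of the circular RNA CDR1as, also called ciRS-7, which is abundant in neurons. That circle carries many matches to the seed of miR-7, which it binds, and a site for miR-671, through which it is cut by Argonaute 2. In melanoma, LINC00632 is known to be silenced by Polycomb repressive complex 2, and loss of the circle there is known to release the RNA-binding protein IGF2BP3. The values below are those of the rows named CDR1 and LINC00632. The circle itself was not analysed here.

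In GENCODE 29 (GRCh38) LINC00632 spans chrX:140709562-140793215 on the plus strand, with 25 transcripts and 28876 bases of merged exons. CDR1 spans chrX:140783578-140784366 on the minus strand, a single coding exon of 789 bases. Its exon begins 74.0 kb downstream of the LINC00632 start. All of it lies opposite LINC00632 exons, and 5 of the 25 LINC00632 transcripts have an exon there, 4 of them covering CDR1 whole. CDR1 carries a later identifier in the table than in GENCODE 29, so the extent used by the authors may differ from the 789 bases given here.

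The first sequences shown are the microRNAs tied to the locus, from RefSeq (GRCh38.p14), 5′ to 3′, with the seed (bases 2 to 8) in capitals.
hsa-miR-7-5p: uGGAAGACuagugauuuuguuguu
hsa-miR-671-5p: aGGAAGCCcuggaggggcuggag
The next is the 300-base stretch opposite CDR1 with the most matches to the miR-7 seed, chrX:140784038-140784337 on the plus strand (GENCODE 29, GRCh38). It is shown because a read from it belongs to CDR1 or to LINC00632 by its strand alone. Capitals mark GTCTTCC, the complement of the miR-7 seed.
Strand opposite CDR1: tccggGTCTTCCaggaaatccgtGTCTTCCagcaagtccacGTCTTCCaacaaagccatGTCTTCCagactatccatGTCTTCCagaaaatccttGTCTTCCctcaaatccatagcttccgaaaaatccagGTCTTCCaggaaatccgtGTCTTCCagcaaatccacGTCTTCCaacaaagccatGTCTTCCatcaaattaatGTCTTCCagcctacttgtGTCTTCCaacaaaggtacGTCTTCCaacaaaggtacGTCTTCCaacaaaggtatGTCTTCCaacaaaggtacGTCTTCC
This stretch holds 16 of the 38 matches that lie opposite CDR1. The CDR1 strand holds 0 matches to GTCTTCC in its 789 bases. The matches do not overlap each other.

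Over all LINC00632 exons there were 69 distinct matches to GTCTTCC, of which 38 lay opposite CDR1 and 68 lay opposite CDR1 or within 1 kb of it. The 20 transcripts without an exon opposite CDR1 held none. The 5 transcripts that pass CDR1 held 53 to 69 each, with 67 in one of 1878 bases (35.7 per kb) and 69 in the longest, of 21221 bases (3.25 per kb). As background, GTCTTCC or its complement GGAAGAC was present in the first 789 bases of 16.5% of the 106383 annotated transcripts of at least that length. Within those first 789 bases, the CDR1 transcript was the 1 transcript with as many as 38 on a strand. A match is a description of letters and not of binding. No GGCTTCC, the complement of the miR-671 seed, was found on either strand of the CDR1 exon. The best ungapped pairing with miR-671-5p in LINC00632 lay 94 bases beyond the CDR1 exon, at chrX:140784460-140784482 on the plus strand, in the 5 transcripts that pass CDR1. There 19 of the 23 bases pair, in capitals here.
miR-671 site: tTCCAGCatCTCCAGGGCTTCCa

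**Figure D1:**
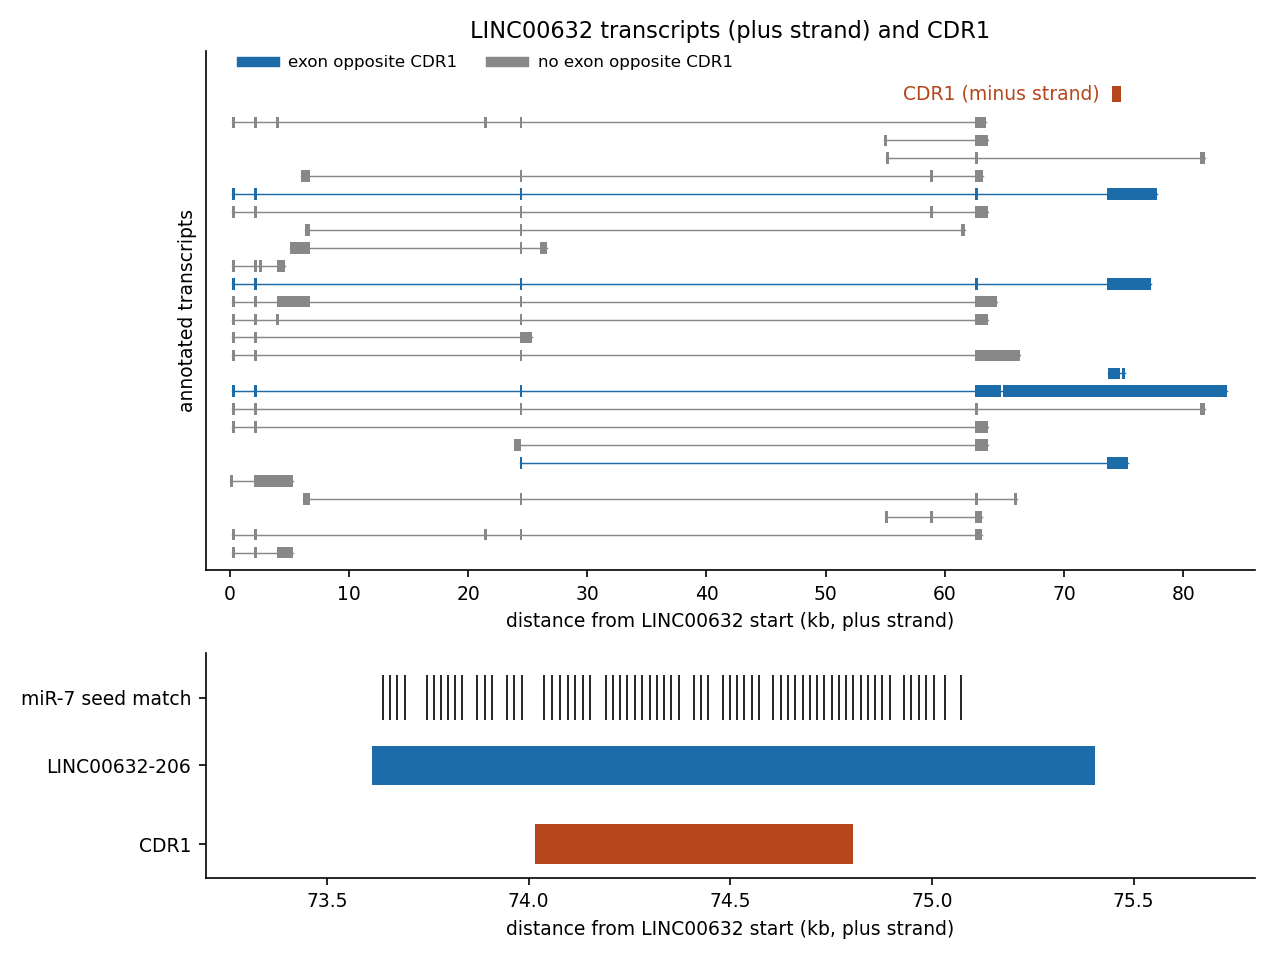
Upper panel: the 25 annotated LINC00632 transcripts by distance from the LINC00632 start (kb), exons as boxes, with the 5 that have an exon opposite CDR1 in blue and CDR1 on the other strand in red. Lower panel: the exon around CDR1, where ticks mark GTCTTCC. CDR1 lies wholly opposite LINC00632 exons, and 38 of the 69 matches lie over it.

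One library stood apart and is given separately throughout: replicate 3 of the parental decitabine group. It held 89.6% of TPM in protein-coding features and 0.299% in features annotated as antisense, against 26.6% to 32.2% and 35.0% to 48.8% in the other 11. ACTB, the cytoplasmic actin gene, was at 6353 TPM there and at 8.14 to 20.4 TPM in the others. The libraries came from a strand-marking kit, per the labels, and the strand setting used in counting is not given in the sources used here. Since CDR1 lies wholly opposite LINC00632, which strand's RNA gave the values of these rows cannot be told apart. Depth is unknown for TPM, so no counting interval is given.

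Of the B-cell markers, CD79A and PAX5 were at 1 TPM or more in all 11 libraries. The 6 B-cell markers summed to 28.8 to 175 TPM there and to 2850 TPM in replicate 3. Neuronal markers matter here because CDR1as is a neuronal RNA. SNAP25, STMN2 and MAP2 were listed at 0 in all 11 libraries. SYP, SYT1 and RBFOX3 reached at most 2.63, 0.603 and 0.964 TPM there. The 6 neuronal markers summed to 0 to 3.74 TPM in the 11 and to 14.0 TPM in replicate 3, where MAP2 was at 8.74 TPM. The 4 T-cell markers summed to at most 0.672 TPM and the 4 myeloid markers to at most 1.39 TPM in the 11. Of the 4 melanocyte markers, MITF and TYR were at 0 in all 11. MLANA was listed at 0 in 1 of the 11 and in replicate 3. Among the 11, it reached at most 4.37 TPM in parental and 1.99 TPM in resistant libraries. PMEL spanned 154 to 278 TPM in the 11 libraries, and replicate 3 had 1.4 TPM. Of the PMEL exon length, 2.28% lies opposite CDK2.

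The CDR1 row held 32.61 TPM or more in 5 parental libraries and 1.17 TPM or less in all resistant ones, with and without decitabine. Parental decitabine replicate 3 was listed at 0. Under vehicle the parental libraries held 48.5, 68.93 and 32.61 TPM in replicates 1, 2 and 3. Resistant vehicle libraries, lettered a to c, held 1.12, 1.17 and 0.48 TPM. No parental value reached down to a resistant one. The group means were 50 ± 18.2 and 0.926 ± 0.385 TPM (SD, n = 3 each), a ratio of 54.0. Each library was scaled to the same sum, but the lines come in separate tables, so levels are set across tables here and were not tested between them. Of the 7761 features averaging 1 TPM or more in these libraries, 10.2% had parental vehicle above resistant vehicle without overlap, and 28.1% had no overlap in either direction. As these are bulk samples, fewer cells with the RNA and less RNA per cell cannot be told apart.

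Without parental decitabine replicate 3, the lines were also separate under decitabine. Parental decitabine replicates 1 and 2 held 62.05 and 58.97 TPM of CDR1. Resistant decitabine libraries a, b and c held 0, 1.17 and 0 TPM, so 2 of the 3 were listed at 0. The ratio of the means was 156, and it rests on a resistant mean (0.389 ± 0.673 TPM, SD, n = 3) to which 1 library contributed. Parental replicate 3, shown apart, was listed at 0 and so fell among the resistant values. With that library left aside, 12.4% of 9029 features had parental decitabine values all above the resistant ones, and 32.0% had no overlap in either direction.

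Across treatments, the lowest of the 5 parental values was 27.8 times the highest of the 6 resistant values. Of 8505 features averaging 1 TPM or more over the 11 libraries, 138 had all 5 parental values above all 6 resistant ones (1.62%) and 3.16% had all of them below, 4.79% together. Ordered by the difference of the mean log2(TPM + 1), CDR1 stood at rank 2 of the 8505, at 5.09, where the median over these features was -0.12. This difference is a reason the gene was chosen and is given as a description only. Within the 5 parental libraries CDR1 varied 2.11-fold from lowest to highest, and it was higher than 81.5% to 88.6% of the features above 0 in its library. In the 4 resistant libraries where it was above 0, it was higher than 15.3% to 32.9% of them.

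**Figure D2:**
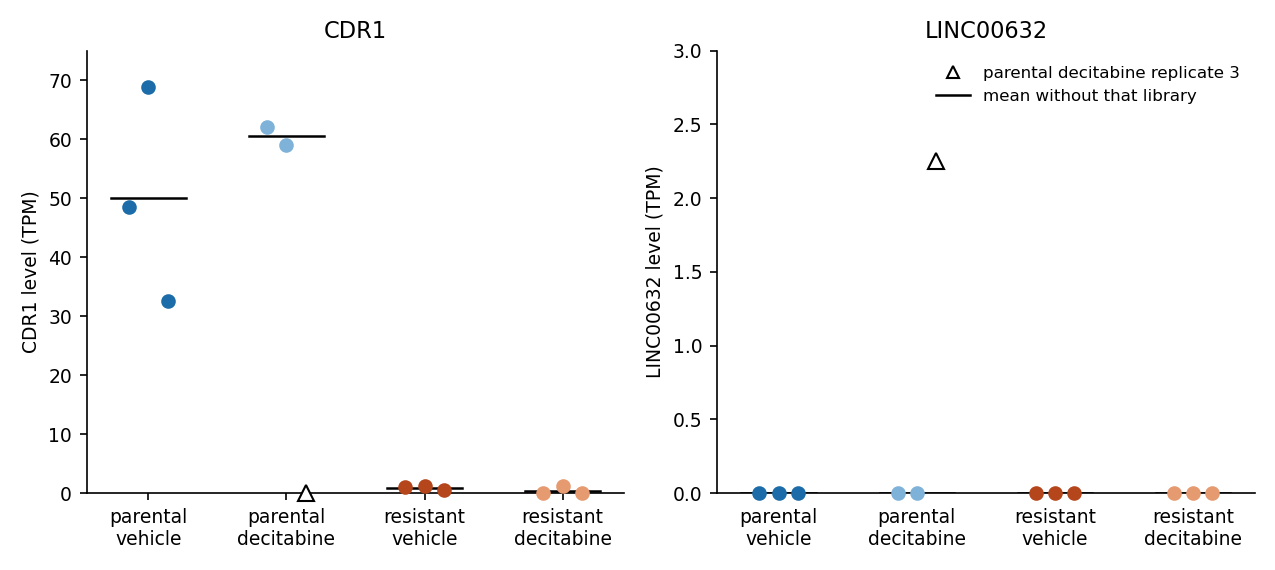
TPM of CDR1 (left) and LINC00632 (right) in each of the 12 libraries by group. Circles are libraries, bars are group means without parental decitabine replicate 3, and the open triangle is that library. CDR1 lies between 32.61 and 68.93 TPM in 5 parental libraries and at 1.17 TPM or less in the other 7, and LINC00632 is above 0 in the triangle alone.

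**Figure D3:**
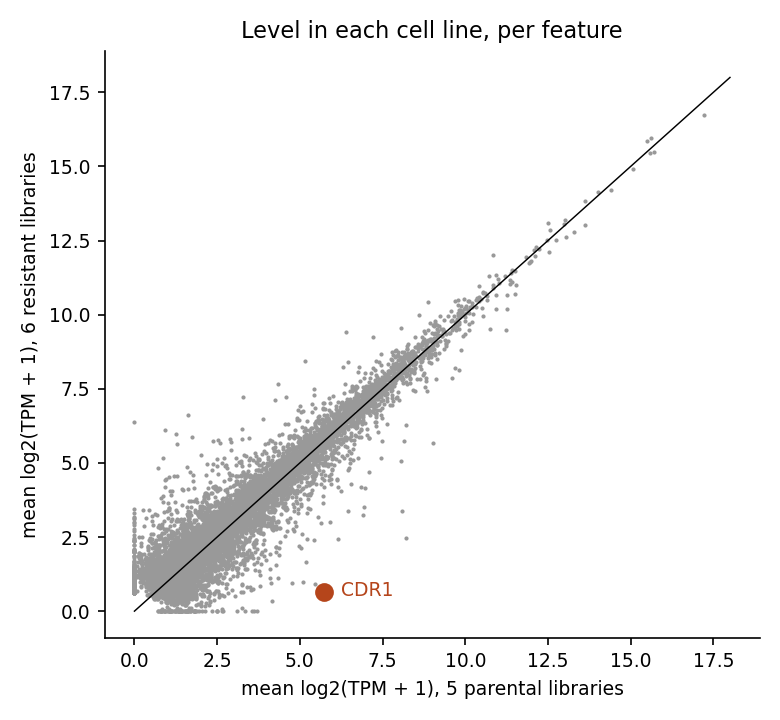
Mean log2(TPM + 1) of 8505 features in 5 parental (x axis) and 6 resistant libraries (y axis), with the line of equal values. CDR1, in red, lies 5.09 below that line.

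Decitabine did not separate the treated from the untreated libraries of either line for CDR1. In parental cells the treated values of 62.05 and 58.97 TPM lay within the vehicle range of 32.61 to 68.93 TPM. In that comparison 39.4% of 8122 features had no overlap between the groups. The difference of decitabine minus vehicle on the log2(TPM + 1) scale was 0.33, given as a description. In resistant cells the treated values of 0, 1.17 and 0 TPM overlapped the vehicle values of 1.12, 1.17 and 0.48 TPM. There 28.4% of 8579 features had no overlap. Of the 2 genes, 1 (CDR1) passed the filter of a mean of 1 TPM in parental cells and 0 passed it in resistant cells. The highest resistant value was the same with and without the drug, at 1.17 TPM, far under the lowest parental value.

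Ordered by group mean, CDR1 was highest in parental decitabine (60.5 TPM over replicates 1 and 2), then in parental vehicle (50), resistant vehicle (0.926) and resistant decitabine (0.389). The parental groups overlapped each other, and so did the resistant groups. The step between parental vehicle and resistant vehicle was the 1 step without overlap.

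LINC00632, the host of the circle, was listed at 0 in the 11 libraries other than parental decitabine replicate 3: 3 parental vehicle, 2 parental decitabine, 3 resistant vehicle and 3 resistant decitabine. In replicate 3 it was at 2.25 TPM, higher than 49.3% of the 23062 features above 0 in that library. CDR1 showed the reverse, listed at 0 in replicate 3 and above 0 in 9 of the 11 others. No fold is given against groups listed at 0. TPM divides by transcript length. The CDR1 exon has 789 bases, and the 5 LINC00632 transcripts with an exon opposite it have 1184 to 21221. LINC00632 thus gives no difference between the lines or treatments among the 11 libraries, and replicate 3 has no counterpart in resistant cells with which it could be set side by side.

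To show how the pair compares with other genes of the same layout, all genes whose exons lie wholly opposite the exons of another gene were listed. Of 654 such pairs, 360 had an enclosed gene averaging 1 TPM or more over the 11 libraries. In 314 of the 360 the enclosed gene was above its opposite gene in the mean of the 11 and below it in replicate 3, as CDR1 was. The reverse change of order occurred in 3 pairs. In the fuller pattern of CDR1 and LINC00632, the opposite gene is at 0 in all 11 and above 0 in replicate 3, with the enclosed gene at 0 there. The opposite gene was at 0 in all 11 in 56 of the 360 pairs, and 50 met the fuller pattern. The enclosed gene is protein-coding in 14 of the 654 pairs. Among the 11 of these that reached 1 TPM, 9 changed order in the same direction as CDR1. LINC00632 was the 1 opposite gene at 0 in all 11 libraries there, so no other of these pairs could meet the fuller pattern. What part strand assignment has in the CDR1 values was not tested.

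**Figure D4:**
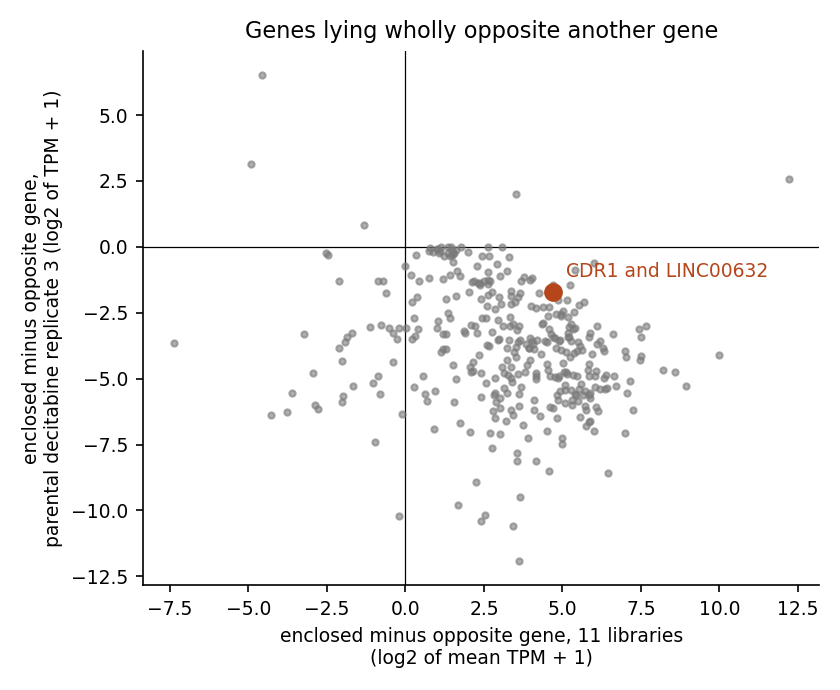
Level of the enclosed gene minus that of the gene opposite it, on the log2 scale with 1 TPM added, in the mean of 11 libraries (x axis) and in parental decitabine replicate 3 (y axis), for 360 pairs. The pair of CDR1 and LINC00632, in red, lies at 4.70 and -1.70, among the 314 pairs above 0 on the x axis and below 0 on the y axis.

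The LINC00632 start was examined for CG dinucleotides, the sites of DNA methylation that decitabine acts on, since the gene was listed at 0 with and without the drug in 11 libraries. RefSeq (GRCh38.p14) gives 3 start windows for it. The first, chrX:140709509-140709808 on the plus strand, holds the GENCODE 29 start given above, with bases before and after it. Capitals mark CG.
LINC00632 first start: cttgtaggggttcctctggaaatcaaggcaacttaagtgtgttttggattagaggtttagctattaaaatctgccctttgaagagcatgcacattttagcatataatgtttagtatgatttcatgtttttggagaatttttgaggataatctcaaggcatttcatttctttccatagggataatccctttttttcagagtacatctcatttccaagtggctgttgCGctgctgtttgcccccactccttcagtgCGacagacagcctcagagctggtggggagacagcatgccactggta
It holds 2 CG, and the other 2 start windows hold 3 each, where the median of 35116 start windows was 14. A CG was present in 96.0% of all windows, and 18.2% had 2 or fewer. CG reads the same on both strands. The CDR1 exon holds 16 CG in 789 bases. Methylation was not measured in these libraries.

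The genes around the pair were at or near 0 in both lines. GENCODE 29 places 14 other genes within 500 kb of LINC00632, and 13 of them were found in the tables under the same name. Of these, 10 were listed at 0 in all 12 libraries, and none reached 1 TPM in any library. SOX3, a neural transcription factor gene 204 kb away, was at 0 in 11 libraries and at 0.04 TPM in replicate 3. LDOC1, a retrotransposon-derived gene 383 kb away, was likewise at 0.10 TPM in replicate 3 alone. The cancer-testis genes SPANXB1 and SPANXC were listed at 0 in all 12, so the neighbourhood gives no measured value against which the CDR1 difference could be set. The nearest features averaging 5 TPM or more in parental cells, looked up after this was seen, were 3862 kb before and 8755 kb after LINC00632. On the side before it, FAM122C (5855 kb away) was at 22.5 to 33.3 TPM in the 5 parental and 17.7 to 29.2 TPM in the 6 resistant libraries. On the side after it, HSFX4 (9136 kb away) was at 5.76 to 16.7 and 6.02 to 10.9 TPM. IDH3G, a subunit of isocitrate dehydrogenase (12993 kb away), was at 18.1 to 33.2 and 16.4 to 36.9 TPM. The pseudogene RAB28P5 (3862 kb before) was at 1.83 to 12.5 and 3.87 to 17.1 TPM. FAM122B (5912 kb before) was at 0 to 17.9 and 0 to 16.8 TPM, and HSFX3 (8755 kb after) at 0 to 12.3 and 0 to 7.93 TPM. The ranges of all these features overlapped between the lines. Over 139 X-linked features averaging 1 TPM or more, the median log2 difference of parental minus resistant cells was 0.03, against -0.12 for the other features. CDR1 was the 1 X-linked feature of the 139 with all parental values above all resistant ones.

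Among named features, 5 had a course over the 11 libraries most like that of CDR1 by Pearson's r of log2(TPM + 1). The 11 libraries fall into the 2 lines, so r mostly measures the difference between them, and it is given as a description. SCP2, which encodes sterol carrier protein, was first (r = 0.98), with a median of 8.48 TPM in parental and 0.554 TPM in resistant libraries. Its range was 7.30 to 9.66 TPM in the former and 0.193 to 0.957 TPM in the latter. UTS2B, the gene of a urotensin-related peptide (r = 0.96), and the pseudogene GRAMD4P8 (r = 0.96) were listed at 0 in all 6 resistant libraries. They were at 2.95 to 6.14 and at 3.51 to 8.14 TPM in the 5 parental ones. STK25, a kinase gene (r = 0.96), was at 27.3 to 44.6 TPM in parental and 4.33 to 6.52 TPM in resistant libraries. The zinc finger gene ZNF740 (r = 0.95) was at 38.7 to 45.1 and 21.6 to 27 TPM. Part of the exon length of each lies opposite another gene: SCP2 5.36%, UTS2B 12.3%, GRAMD4P8 10.7%, STK25 14.4% and ZNF740 20.8%. None of the 5 lies on the X chromosome. In replicate 3 they did not share a level: SCP2 was at 44.1 TPM, STK25 at 70.9 TPM, ZNF740 at 13.3 TPM, GRAMD4P8 at 0.80 TPM and UTS2B at 0 TPM. LINC00632 was at 0 in all 11, so no likeness can be computed for it.

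The genes known to act with the circle were followed in 4 lists: genes of miR-7 and miR-671 with Argonautes and miRNA decay (17 genes), reported miR-7 targets (18), circular RNA formation and turnover (14) and Polycomb repressive complex 2 with H3K27 demethylases and the IGF2BP proteins (16). All 65 were found in the tables by name alone, and 26 were under 1 TPM in all 11 libraries. In replicate 3, 52 of the 65 were higher than in any of the 11. The share of all features for which this held was not computed, so the count is no trait of the lists. Coding features took 89.6% of TPM in replicate 3, against 26.6% to 32.2% in the 11. With decitabine 1 of 22 tested genes rose in parental cells and 2 of 23 in resistant cells, and none fell (limma, Benjamini-Hochberg adjusted p under 0.05). Over all features, 1.86% of 8122 in parental and 3.59% of 8579 in resistant cells were called, and 1.38% and 2.83% rose. With replicate 3 included, no list gene was called in parental cells. The median log2 change of the tested list genes was 0.34 in parental and 0.09 in resistant cells, against 0.21 over all features in each.

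Of the microRNA genes, MIR7-1 and MIR7-2 were listed at 0 in all 11 libraries, MIR671 in 10 of them and MIR7-3 in 9. The libraries hold polyadenylated RNA and mature microRNAs carry no poly(A) tail, so these rows do not measure the mature forms. No tested gene of this list was called in either line (5 tested in each, median log2 change -0.12 in parental and 0.02 in resistant cells). HNRNPK, whose intron hosts MIR7-1, had a vehicle mean of 248 TPM in parental and 332 TPM in resistant cells, with log2 changes of 0.33 (SE 0.10) and -0.14 (SE 0.16) under decitabine. ZSWIM8, the ligase subunit of target-directed microRNA decay, had vehicle means of 97.2 and 72.4 TPM. AGO2, the Argonaute that cuts the circle at the miR-671 site, was at 0.21 to 0.87 TPM in the 11 libraries and at 9.33 TPM in replicate 3.

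Of the reported miR-7 targets 8 were tested in each line (median log2 change 0.38 in parental and 0.26 in resistant cells), and TNK2 rose in both. TNK2 encodes the kinase ACK1. Coding features took 26.6% to 32.2% of TPM in the 11 libraries, and 2.45% of the TNK2 exon length lies opposite TNK2-AS1. Parental vehicle libraries held 22.7, 23.3 and 23.2 TPM of TNK2, against 52.4 and 54.8 TPM for decitabine replicates 1 and 2. Resistant vehicle libraries held 24.7, 23.7 and 19.5 TPM, against 53, 54.8 and 60 TPM for resistant decitabine. The treated and untreated values did not overlap in either line, which held for 39.4% of all 8122 features in parental and 28.4% of 8579 in resistant cells. The vehicle levels of the lines overlapped. Its change on the log2 scale was 1.18 (SE 0.13, limma adjusted p = 0.0342, higher in 2 of 2 libraries) in parental and 1.27 (SE 0.16, limma adjusted p = 0.0224, higher in 3 of 3) in resistant cells. In parental cells the call was lost on leaving out any 1 library (limma adjusted p = 0.117, 0.125 and 0.103 for vehicle replicates 1, 2 and 3, then 0.0568 and 0.0539 for the decitabine libraries). It was also lost with replicate 3 included (limma adjusted p = 0.594), where TNK2 was at 157 TPM. Over all alternatives p ran from 0.037 to 0.711. The resistant call was lost on leaving out vehicle b (limma adjusted p = 0.0562), vehicle c (0.0666) or any decitabine library (0.0683, 0.0667 and 0.0687), with a range over all alternatives of 0.0198 to 0.146. Of the other targets, YY1 had log2 changes of -0.48 (SE 0.18) and -0.05 (SE 0.24), and SETDB1, a histone methyltransferase gene, 0.11 (SE 0.18) and 0.31 (SE 0.18), without a call. EGFR, the receptor known as a classic miR-7 target, and KLF4 were listed at 0 in all 12 libraries.

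Of the genes of circular RNA formation and turnover 5 were tested in each line (median log2 change 0.39 in parental and -0.15 in resistant cells), and HNRNPL rose in resistant cells. It encodes a splicing factor that takes part in circular RNA formation. HNRNPL vehicle values were 1.21, 3.38 and 3.24 TPM and decitabine values 13.2, 20 and 36.1 TPM. The groups did not overlap, as for 28.4% of all 8579 features in resistant cells. Its change on the log2 scale was 2.69 (SE 0.47, limma adjusted p = 0.0456, higher in 3 of 3 libraries). The call was lost on leaving out any 1 library (limma adjusted p = 0.0835, 0.0955 and 0.105 for the vehicle libraries, then 0.0794, 0.113 and 0.1 for the decitabine libraries), with a range over all alternatives of 0.0454 to 0.113. Parental vehicle values were 1.87, 1.32 and 3.04 TPM and decitabine values 4.18 and 9.07 TPM (log2 change 1.27, limma adjusted p = 0.257). Replicate 3 held 308 TPM. The other HNRNPL values come from libraries in which coding features took 26.6% to 32.2% of TPM. Of the HNRNPL exon length, 0% lies opposite another gene. The difference between the lines was not tested. METTL3, the catalytic subunit of the m6A methyltransferase, had log2 changes of 0.39 (SE 0.19) and -0.15 (SE 0.27).

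Of the Polycomb list 4 genes were tested in parental and 5 in resistant cells (median log2 change 0.66 and 0.03), and none was called. The core subunits EZH2, SUZ12 and EED were under the mean of 1 TPM in the fits and at 83.2, 40.2 and 14.9 TPM in replicate 3. RBBP4, a histone-binding subunit, varied from 0 to 101 TPM within the resistant libraries. Between the lines, 3 of the 23 list genes tested had all 5 parental values below all 6 resistant ones and none had them above, where 3.16% and 1.62% of all features did. They are named after their values were seen. IGF2BP3 was at 5.54 to 9.93 TPM in the parental and 12.1 to 16.2 TPM in the resistant libraries. SETDB1 was at 21.3 to 28.1 and 33.2 to 51.6 TPM. RELA, the NF-kappaB subunit gene, was at 0.78 to 2.97 and 3.42 to 7.45 TPM. In replicate 3 these genes were at 54.2, 22.7 and 129 TPM. Their values in the 11 libraries come from libraries in which coding features took 26.6% to 32.2% of TPM, and 17.9% of the exon length of IGF2BP3 and 13.4% of that of SETDB1 lies opposite MALSU1 and CERS2 respectively.

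**Figure D5:**
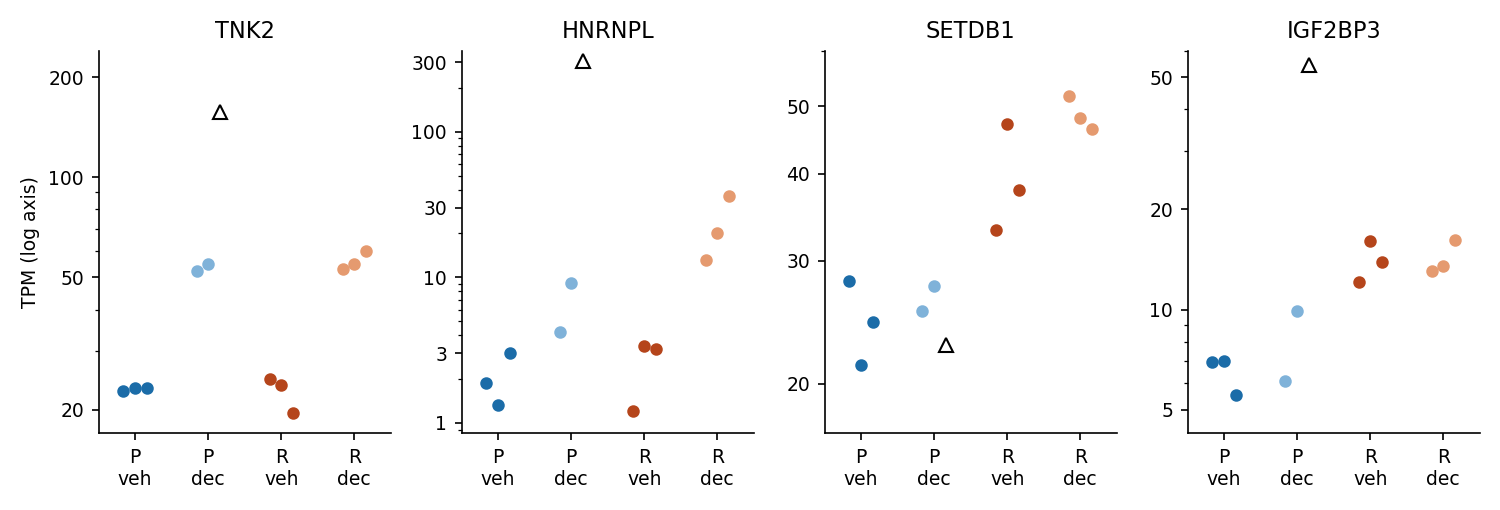
TPM on a log axis of TNK2, HNRNPL, SETDB1 and IGF2BP3 in the 12 libraries (P parental, R resistant, veh vehicle, dec decitabine). Circles are libraries and the open triangle is parental decitabine replicate 3. TNK2 and HNRNPL separate by treatment in both lines, as did 39.4% of all features in parental (without the triangle) and 28.4% in resistant cells. SETDB1 separates by line, and IGF2BP3 does so in the 11 libraries other than the triangle, which lies at 54.2 TPM.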

How the data were processed

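Values were TPM per gene in 2 tables, 1 per line, as deposited by the authors. The submitters' processing notes name HISAT2, StringTie, DESeq2 and hg38, with no role or version given. The TPM sum to 1000000 per library and depth is unknown. Resistant columns could be tied to a group only and are lettered a to c. Names that occur once were kept (59490 of 60656 features). Of the parental identifiers found in a reference of gene names, 24.2% matched the name beside them, both members included. All other genes are given by name alone, and their identifiers were not checked 1 by 1. For each line, log2(TPM + 1) of features averaging at least 1 TPM was fitted with limma 3.58.1 (R 4.3.3, trend), decitabine against vehicle, with Benjamini-Hochberg adjusted p under 0.05 as a call. Parental decitabine replicate 3 was left out of the parental fit. Scripts were tested on simulated data. Gene positions are GENCODE 29 and sequences of microRNAs and starts RefSeq. Replicate numbers were tried as a block and not used as pairs. The members and lists were chosen with earlier results of these data known. Genes named were both members, annotated genes within 500 kb, called list genes with the most abundant others, the 5 features most like CDR1 and defining markers.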

Additional observations from a re-analysis of the deposited data

Results flagged for a closer look

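LINC00632 was at 2.25 TPM in parental decitabine replicate 3, a library left out of the comparisons, and was listed at 0 in the 3 parental vehicle libraries.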

How the results depend on the processing

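With decitabine, 151 features were called in parental cells (112 rose and 39 fell) and 308 in resistant cells (243 and 65). Without a filter on low values 35 and 73 were called. Leaving out 1 library gave 14 (without vehicle replicate 1) to 264 (without decitabine replicate 2) in parental and 90 (without decitabine c) to 197 (without vehicle a) in resistant cells. Limma called 0 parental features with replicate 3 included (262 at an unadjusted p under 0.05), 0 with the replicate block (978) and 0 with the replicate block and replicate 3 (234), the last chosen after seeing the data. With the replicate block on the numbers in the resistant column names, 2 features were called (1519 at an unadjusted p under 0.05), and neither TNK2 nor HNRNPL was among the calls (limma adjusted p = 0.146 and 0.113). Deviations of same-numbered libraries from their group means had r of -0.01, 0.03 and 0.04 in resistant and 0, 0.02 and 0.02 in parental cells. The parental r included decitabine replicate 3. With it, decitabine replicates 1 and 2 gave nearly equal r with vehicle replicates 1 to 3 (0, 0.03 and -0.02, then 0, 0.02 and -0.02). The parental r therefore cannot show whether same-numbered libraries belong together. Median-ratio scaling moved the median log2 change from 0.21 to 0.04 in parental and to 0.09 in resistant cells, and the calls to 103 rises and 88 falls, and to 220 and 124. For CDR1 on the log2 scale, decitabine minus vehicle in parental cells went from 0.33 to -1.65 with replicate 3, and in resistant cells from -0.55 to -2.05 with a pseudocount of 0.1. Resistant minus parental went from -4.68 to -5.63 under vehicle with that pseudocount, and under decitabine from -5.57 to -8.02 with it and to -3.59 with replicate 3. For LINC00632 the differences of 0 became 0.57 (decitabine minus vehicle, parental) and -0.57 (resistant minus parental, decitabine) with replicate 3. For the moved counts and differences the cause was not tested, other than that leaving out libraries or filters changes how many samples or features are tested. Leaving out 1 library kept the sign of each CDR1 difference: 0.06 to 0.59, -0.92 to -0.37, -4.95 to -4.43 and -5.94 to -5.38. Depth is unknown, so a listed 0 has no upper limit here.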
